A study of Mus musculus with 4 samples.

Results

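The mRNAs of the aminoacyl-tRNA synthetases were examined in the mouse line IMS32, immortalized Schwann cells, which are the glia that ensheathe peripheral axons. The synthetases were taken as every probe for a mouse transcript whose description on the array holds "-tRNA synthetase", leaving out the Aimp scaffold genes. This gave 48 probes for 40 gene names of 31087 on the array. A name was placed in the mitochondrial group if its description says mitochondrial or it ends in 2, which gave 17 names, and the other 23 formed the cytosolic group. All 40 were well above background on all 4 arrays, so none was lost to a filter on dim probes. None of the 40 differed by 1.5-fold in any of the 4 comparisons between arrays, in which 5.57 to 10.8% of all genes did. That share is not matched by level, and 29 of the 40 were in the highest tercile of genes by level, where differences spread least. A list for uncharged tRNA sensing, chosen with earlier results of these data known, had 9 genes on the array. Of these, Atf4, Ddit3, Trib3 and Sesn2, which lie downstream of phosphorylated eIF2, were at least 1.5-fold higher without pyruvate at 15 mM glucose. Of all genes 5.13% were, and 4 of the 9 had a difference below 0.

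The cells were kept for 1 h in DMEM with 5% FBS, the medium and serum being common to all groups. [Glc 5 mM/Pyr (+)] had 5 mM glucose and 1 mM pyruvate, and [Glc 5 mM/Pyr (−)] had 5 mM glucose without pyruvate. [Glc 15 mM/Pyr (+)] had 15 mM glucose and 1 mM pyruvate, and [Glc 15 mM/Pyr (−)] had 15 mM glucose without pyruvate. Total RNA of each condition was hybridized to 1 one-colour array, so no difference has a replicate check, and less mRNA per cell and fewer cells carrying it cannot be told apart. IMS32 is a single immortalized line and stands for Schwann cells only as far as such a line does.

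An aminoacyl-tRNA synthetase joins an amino acid to the tRNA that carries its anticodon, and the charged tRNA then takes the amino acid to the ribosome. Cells of animals hold a cytosolic set and a separate mitochondrial set, both encoded in the nucleus, while Gars and Kars each serve both compartments. When an enzyme's amino acid runs short, uncharged tRNA activates the kinase GCN2 (Eif2ak4), which phosphorylates eIF2 and favours translation of the transcription factor ATF4. Other kinases of eIF2 answer to other stresses and act through the same factor, so Atf4 and its targets are not specific to uncharged tRNA. ATF4 binds a composite C/EBP-ATF response element, and many cytosolic synthetase genes are known targets of it. Mutations in several synthetase genes cause inherited peripheral neuropathy, among them GARS, YARS, AARS, HARS and KARS.

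The labelled cell type was checked first. All 10 Schwann cell markers were well above background on all 4 arrays, with a summed intensity of 42499.4 to 49991.6. S100b, Sox10, Ngfr and Pmp22 held most of that sum, whereas Erbb3 and Gfap stayed at or below 76.4 on every array. Of the markers of other cell types, 4 of 5 for fibroblasts, 3 of 4 for neurons, 4 of 4 for macrophages and 2 of 3 for endothelium were above background on all arrays. Their summed intensities were 1782.8 to 1913.0 for fibroblasts, 6054.6 to 9726.7 for neurons, 2027.7 to 2913.9 for macrophages and 4230.4 to 5703.5 for endothelium. Snap25 held most of the neuronal sum and Kdr most of the endothelial sum, and Cdh5, which defines endothelium, was not well above background on any array. Snap25 was lower on both 15 mM glucose arrays, at 6058.9 and 5469.9, than on both 5 mM glucose arrays, at 9340.5 and 8353.8, and the neuronal sum followed it. The other 3 neuronal markers were highest in [Glc 15 mM/Pyr (−)], Tubb3 at 423.4, Elavl3 at 118.6 and Rbfox3 at 42.7. On the other arrays they reached at most 383.3, 66.4 and 20.2. In [Glc 15 mM/Pyr (+)] Elavl3 at 44.2 and Rbfox3 at 8.9 were at their lowest, and Tubb3 at 336.6 was not. The macrophage sum was highest in [Glc 15 mM/Pyr (−)] through Cd68, at 1816.6 beside at most 1257.6 elsewhere, whereas Adgre1, Csf1r and Ptprc were not highest there and Ptprc was lowest. The part of such cells in the differences below was not tested. The arrays had 28467 to 30340 probes well above background and no saturated spot, and the 399 probes printed 10 times had a median SD between spots of 0.073 to 0.078 on the log2 scale.

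The cytosolic group held 20 genes that together charge tRNAs for all amino acids, with Eprs serving both glutamate and proline and Farsa and Farsb encoding the subunits of 1 enzyme. It also held Aarsd1 and Prorsd1, which encode proteins with a domain related to a synthetase, and a dim probe named only by the transcript ENSMUST00000034441 and described as alanyl-tRNA synthetase. That probe lies at chr8:113580058-113580117 (mm9, plus strand), beside the Aars probe at chr8:113579376-113579434 on the same strand. The mitochondrial group held Tarsl2, whose name ends in 2 although its enzyme is known as cytosolic. It held no glutamine enzyme, since mitochondria charge that tRNA by another route, with the amidotransferase subunits Gatb, Gatc and Qrsl1. Of the 48 probes, 47 matched a gene in the RefSeq table of GRCm38.p6, where Mars is listed as Mars1. Positions of probes are those of the files, in mm9, and were not placed in exons or introns because no annotation of that build was used.

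Promoters were examined because the response element is the known link from ATF4 to these genes. The RefSeq promoters of GRCm38.p6, 250 bases before to 50 after the transcript start, held 29 of the 39 synthetases with a gene symbol. The core TGATGNAA was searched on both strands, where its reverse complement reads TTNCATCA, and it was found in 5 of 29 (17.2%), against 4.51% of the promoters of 27025 genes. The 5 were Aars, Gars, Iars, Tars and Yars, all cytosolic, so that 5 of 15 cytosolic promoters (33.3%) and 0 of 14 mitochondrial ones held it. Among genes listed as ATF4-responsive, 5 of 8 promoters held it, and among the other cytosolic enzymes 0 of 5. The E-box CACGTG, also searched on both strands, was in 5 of 29 (Aars, Ears2, Farsb, Iars and Tars), against 8.09% of all promoters, and none of these overlapped a response element core. A match of letters is a description of the promoter and no evidence of binding in these cells.

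The following stretches show the core in capitals, each written 5′ to 3′ in the direction of the gene. The first 3 are the 120 bases that hold the cores upstream of Aars, Gars and Tars, and the others are 30-base windows over cores just after the start of Aars, Iars and Yars, with that of Trib3, a target of ATF4, for comparison. The upstream core began 112 bases before the start in Aars, 30 in Gars and 15 in Tars. The core in the transcribed part began at base 10 in Aars, 8 in Iars, 4 in Yars and 15 in Trib3.
Aars (chr8:111033722-111033841, plus strand): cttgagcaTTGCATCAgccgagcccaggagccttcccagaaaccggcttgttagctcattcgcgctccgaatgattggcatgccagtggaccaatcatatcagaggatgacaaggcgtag
Gars (chr6:55037881-55038000, plus strand): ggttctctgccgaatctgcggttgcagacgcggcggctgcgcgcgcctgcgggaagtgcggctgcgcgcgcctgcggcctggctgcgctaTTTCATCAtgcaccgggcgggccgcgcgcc
Tars (chr15:11399659-11399778, minus strand): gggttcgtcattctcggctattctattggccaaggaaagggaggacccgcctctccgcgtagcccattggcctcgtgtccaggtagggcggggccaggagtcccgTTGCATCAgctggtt
Aars, start (chr8:111033840-111033869, plus strand): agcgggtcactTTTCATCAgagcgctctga
Iars, start (chr13:49682126-49682155, plus strand): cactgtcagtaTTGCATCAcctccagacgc
Yars, start (chr4:129189895-129189924, plus strand): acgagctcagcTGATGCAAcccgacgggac
Trib3, start (chr2:152344028-152344057, minus strand): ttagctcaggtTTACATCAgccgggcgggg

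The comparison of pyruvate removal asked whether loss of pyruvate was followed by a change of these mRNAs within 1 h at either glucose concentration. Levels are log2 intensity relative to the 75th percentile of the mouse probes on the same array, so that 0 is that percentile, and a gene with several probes is their mean. A difference is Pyr (−) minus Pyr (+) on this log2 scale, where 0.58 is 1.5-fold. At 5 mM glucose the median difference was −0.02 over the cytosolic group, 0.01 over the mitochondrial group and −0.02 over all 22948 genes measured on both arrays. At 15 mM glucose it was 0.01, 0.01 and 0.03, respectively, with 21884 genes measured. The synthetases thus lay around the median of all genes at both glucose concentrations.

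None of the 40 synthetases was past 1.5-fold at 5 mM glucose, where 5.7% of all genes were, and none at 15 mM glucose, where 10.1% were. At a 2-fold threshold none was past it either, where 2.74% and 4.42% of all genes were. The spread of differences was larger among dim genes, with an SD at 5 mM glucose of 0.42 in the lowest tercile of genes by level and 0.10 in the highest. Of the 40 synthetases, 29 were in the highest tercile, 9 in the middle and 2 in the lowest. Set against genes of the same tercile, only Dars lay outside the central 95% at 5 mM glucose, a range that by its making leaves out 5.03% of all genes. At 15 mM glucose 0 of 40 lay outside (5.01% of all genes). That range for the genes of highest level was −0.35 to 0.31 there, against −0.19 to 0.20 at 5 mM glucose.

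The direction was mixed. At 5 mM glucose 8 of 23 cytosolic and 9 of 17 mitochondrial synthetases were higher without pyruvate, where 43.7% of all genes had a difference above 0. At 15 mM glucose these counts were 13 of 23 and 10 of 17, where the share of all genes was 57.1%. The 2 pyruvate comparisons share no array. Across them, 9 synthetases were higher without pyruvate in both, 9 were lower in both, 14 were lower at 5 mM and higher at 15 mM glucose, and 8 were the reverse. As shares of the 40 these are 22.5, 22.5, 35.0 and 20.0%, and the shares of 21719 genes were 25.5, 24.9, 31.6 and 18.0%.

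**Figure D1:**
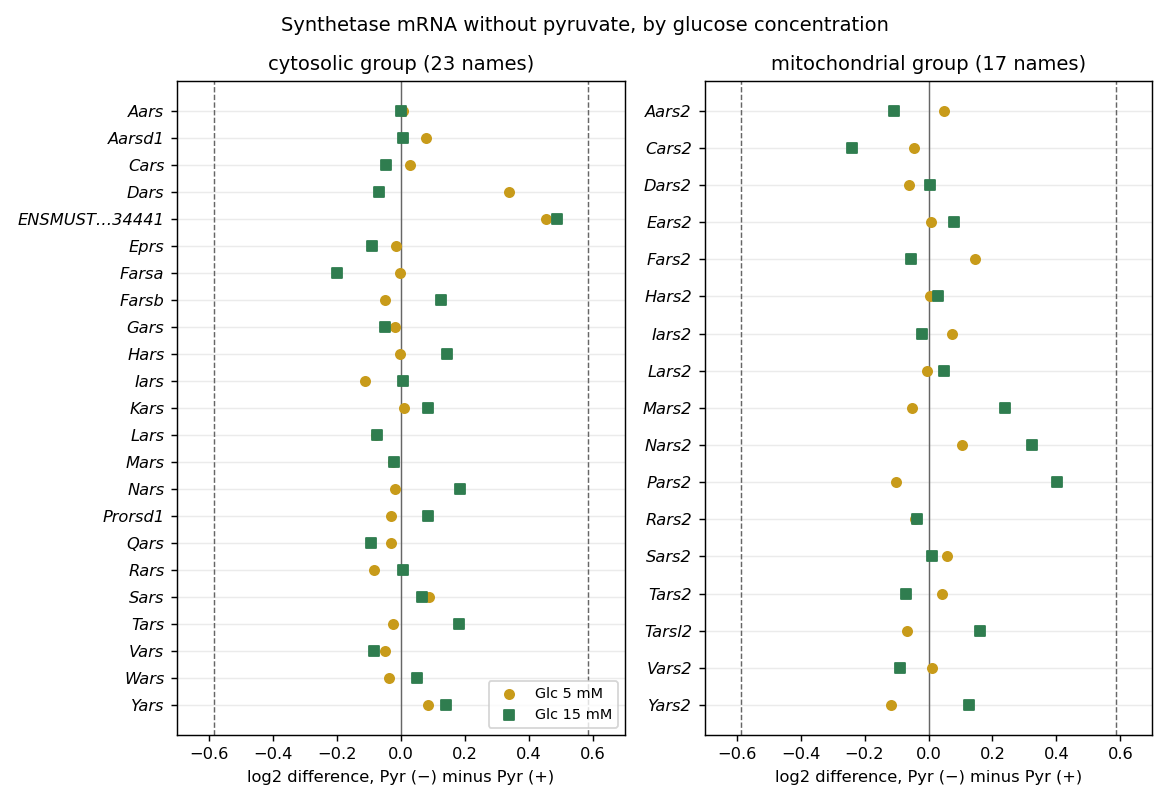
Log2 difference Pyr (−) minus Pyr (+) of each synthetase name, with circles for 5 mM glucose and squares for 15 mM glucose, 1 array per condition and no error bars; dashed lines mark 1.5-fold. All 40 names stay inside the dashed lines at both concentrations, and the points farthest from 0 are ENSMUST00000034441 (0.45 and 0.49), Pars2 at 15 mM (0.40) and Dars at 5 mM (0.34).

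Among the cytosolic enzymes, Dars, which charges the tRNA for aspartate, had levels at 5 mM glucose of −0.37 with pyruvate and −0.03 without it, and at 15 mM glucose of −0.10 with pyruvate and −0.17 without it. Values of the 4 arrays follow this order below. The [Glc 5 mM/Pyr (+)] array was thus the low one and the other 3 lay close together. Its difference without pyruvate was 0.34 at 5 mM and −0.07 at 15 mM glucose. Iars, the isoleucine enzyme, stood at 2.62, 2.51, 2.46 and 2.46 on the 4 arrays. It was highest in [Glc 5 mM/Pyr (+)], with a difference of −0.11 at 5 mM and 0.00 at 15 mM glucose.

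Nars and Tars, the enzymes for asparagine and threonine, had the same highest array. Nars had levels of 2.90, 2.88, 2.84 and 3.03, and Tars of 3.46, 3.44, 3.43 and 3.61 on the 4 arrays. Both were highest in [Glc 15 mM/Pyr (−)], by 0.19 and 0.18 over [Glc 15 mM/Pyr (+)], and both differed by −0.02 and −0.03 at 5 mM glucose. Hars, the histidine enzyme, was also highest there, at 2.12, 2.12, 2.12 and 2.27, with a difference of 0.14 at 15 mM glucose. Farsa, the catalytic subunit of the phenylalanine enzyme, stood at 0.12, 0.12, 0.36 and 0.16, so the [Glc 15 mM/Pyr (+)] array was the high one and the difference at 15 mM glucose was −0.20, from −0.33 in its dimmer and −0.08 in its brighter probe.

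The transcript ENSMUST00000034441 had the largest difference at both concentrations. Its intensity was 18.1, 24.1, 18.3 and 26.2, and it was among the 2 synthetase names in the lowest tercile by level. Both arrays without pyruvate lay above both arrays with it. Its difference was 0.45 at 5 mM and 0.49 at 15 mM glucose, but 0.24 and −0.04 with another background correction (normexp). The Aars probe beside it had an intensity of 34279.0, 33534.8, 29269.6 and 29862.0 and differed by 0.01 and 0.00 on the scaled log2 values.

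Gars, whose promoter holds the core 30 bases upstream, had levels of 5.86, 5.84, 5.95 and 5.90. Its 4 arrays spanned less than those of Dars, and its differences without pyruvate were −0.02 at 5 mM and −0.05 at 15 mM glucose. Yars, with the core at base 4, stood at −2.15, −2.06, −2.20 and −2.06. It was higher without pyruvate at both concentrations, by 0.08 and 0.14. The 5 synthetases with a core had median differences of −0.02 and 0.00, with 2 and 3 of 5 higher. The 24 whose promoter lacked it had medians of 0.00 and −0.01, with 12 of 24 higher at each.

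Divided by role, the cytosolic enzymes had medians between −0.05 and 0.08. The 12 ATF4-responsive synthetases (Aars, Cars, Eprs, Gars, Iars, Lars, Mars, Nars, Sars, Tars, Wars and Yars) had a median difference of −0.02 at 5 mM glucose, with 4 of 12 higher, and of 0.00 at 15 mM glucose, with 6 of 12 higher. The other 8 had medians of −0.02 and −0.03. The 8 enzymes of the multisynthetase complex, a particle in which several cytosolic synthetases are held together, had medians of −0.03 and −0.05. By catalytic fold, the 10 enzymes listed as class I had medians of −0.03 at 5 mM and −0.04 at 15 mM glucose. Eprs, which serves both glutamate and proline, was counted in that class only. The 10 class II enzymes had 0.00 and 0.08, with 6 of 10 higher at 15 mM glucose where 57.1% of all genes were.

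Among the mitochondrial enzymes, Pars2, which charges the tRNA for proline, had the largest difference at 15 mM glucose. Its levels were −1.98, −2.08, −2.15 and −1.75, the last array being the high one, and its differences were −0.10 and 0.40. Its 2 probes did not move together. The brighter, at chr4:106327826-106327885, had an intensity of 3063.1, 3263.0, 2946.8 and 3204.2 and differed by 0.13 and 0.09. The dimmer, at chr4:106326033-106326092, had an intensity of 67.2, 52.0, 43.9 and 73.6 and differed by −0.33 and 0.71. It was the only 1 of the 48 probes past 1.5-fold in any comparison, and with the brighter probe alone the gene's difference at 15 mM glucose was 0.09.

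Cars2, the mitochondrial cysteine enzyme, was the lowest at 15 mM glucose, with levels of −1.53, −1.58, −1.65 and −1.89 and a difference of −0.24. The [Glc 15 mM/Pyr (−)] array was the low one. Here too 1 probe carried the difference, since the probe at chr8:11547757-11547816, with an intensity of 569.6, 524.7, 446.2 and 329.9, differed by −0.47. The other, with no position in the files, had an intensity of 671.0, 648.8, 582.6 and 589.0 and differed by −0.01.

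Nars2, the mitochondrial asparagine enzyme, was dim, with an intensity of 24.8, 25.9, 24.6 and 31.5 at chr7:104212879-104212938. It was highest in [Glc 15 mM/Pyr (−)], with a difference of 0.10 at 5 mM and 0.32 at 15 mM glucose, and the latter became −0.08 with the normexp background correction. Fars2, the mitochondrial phenylalanine enzyme, had levels of 1.06, 1.20, 1.33 and 1.27, lowest in [Glc 5 mM/Pyr (+)], and differed by 0.14 and −0.06. Yars2, the mitochondrial tyrosine enzyme, stood at 1.83, 1.72, 1.78 and 1.91, and its differences of −0.12 and 0.13 had opposite signs. Mars2, for methionine, differed by −0.05 at 5 mM and 0.24 at 15 mM glucose.

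In all, 8 synthetases had 2 probes, which shows how far probes of 1 gene disagree within the same arrays. This gap can hold differences of transcript and brightness between the probes, and it holds no variation between arrays or cultures. Both probes had the same sign in 2 of 8 at 5 mM glucose and in 6 of 8 at 15 mM glucose. The median gap between them was 0.15 and 0.24, and the largest was 0.46 and 0.62, both in Pars2. Of the 40 synthetases, 2 differed by more than this median gap at 5 mM glucose (Dars and ENSMUST00000034441) and 3 at 15 mM glucose (ENSMUST00000034441, Pars2 and Nars2). The dimmer probe had the difference of larger size in 7 of 8 at 15 mM glucose, all but Tars2.

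**Figure D2:**
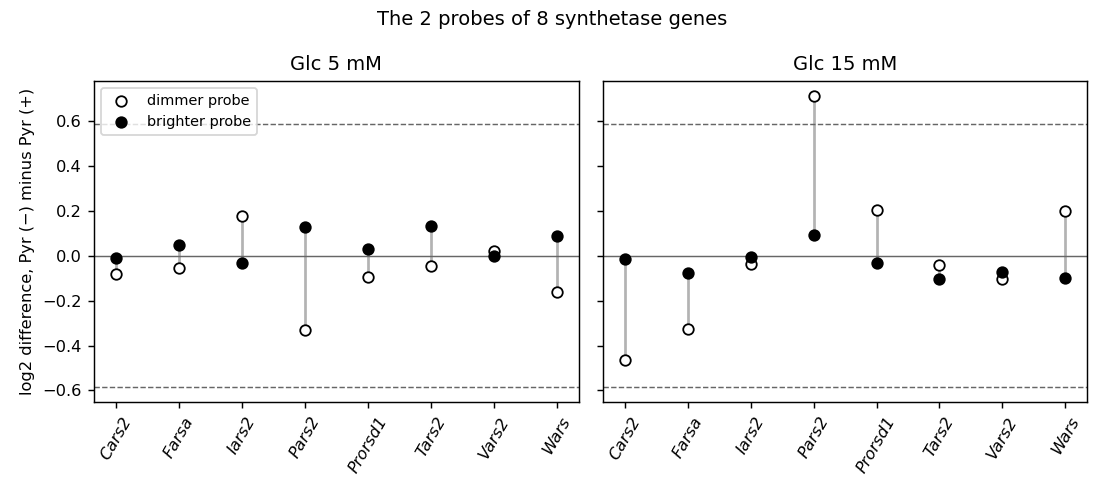
Log2 difference Pyr (−) minus Pyr (+) for each of the 2 probes of 8 synthetase genes, at 5 mM glucose (left) and 15 mM glucose (right), with open circles for the dimmer and filled circles for the brighter probe; dashed lines mark 1.5-fold and no error bar is drawn, as each condition has 1 array. At 15 mM glucose the dimmer Pars2 probe lies at 0.71 and the dimmer Cars2 probe at −0.47, while their brighter probes lie at 0.09 and −0.01.

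The comparison of glucose concentrations, 15 minus 5 mM, gave a similar picture. With pyruvate the median difference was −0.01 over the cytosolic group, −0.03 over the mitochondrial group and −0.02 over all genes. Without pyruvate it was 0.05, 0.06 and 0.04. None of the 40 synthetases was past 1.5-fold with pyruvate (5.57% of all genes) or without it (10.8%), and none was past 2-fold (2.61% and 4.56%). With pyruvate 11 of 23 cytosolic and 6 of 17 mitochondrial synthetases were higher at 15 mM glucose, where 44.4% of all genes were, and without pyruvate 16 of 23 and 10 of 17, where 56.5% were. These comparisons share arrays with those of pyruvate and are not independent of them.

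With pyruvate, Fars2 differed by 0.27 and Dars by 0.26 between the glucose concentrations, and these were the 2 of 40 outside the central 95% of genes of their level, which leaves out 4.99% of all genes. Farsa differed by 0.24, and Tars2, the mitochondrial threonine enzyme, by 0.17, from levels of 1.80, 1.84, 1.97 and 1.90 on the 4 arrays. The brighter Tars2 probe differed by 0.30 and the dimmer by 0.04. Pars2 was the lowest, at −0.17, from −0.45 in its dimmer and 0.11 in its brighter probe, and with the brighter probe alone the lowest was Iars at −0.16. Without pyruvate 0 of 40 lay outside that range (5.02% of all genes), and the largest differences were 0.37 in Nars2, 0.33 in Pars2 and −0.31 in Cars2. With the brighter probe alone Pars2 differed by 0.07 and Cars2 by −0.05, and with the normexp background correction Nars2 differed by 0.19. In the cytosolic group they were 0.22 in ENSMUST00000034441, 0.17 in Tars and 0.15 in Hars.

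**Figure D3:**
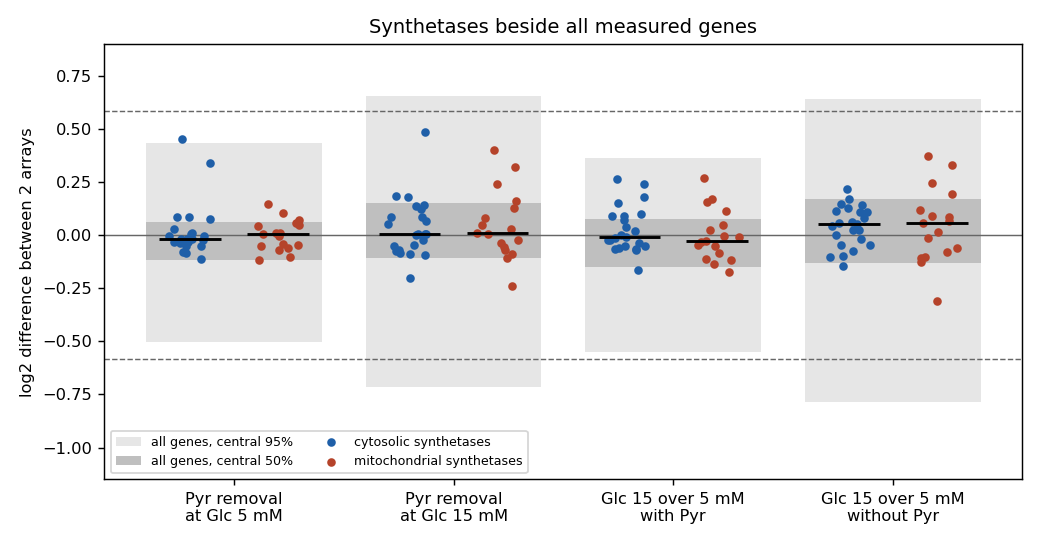
Log2 differences of cytosolic (blue) and mitochondrial (red) synthetases in the 4 comparisons, each point being 1 gene name and each black line the group median, over the central 95% (light grey) and central 50% (dark grey) of all genes measured in that comparison; dashed lines mark 1.5-fold. The medians lie between −0.03 and 0.06, and no point passes a dashed line.

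These values depend on how the arrays are put on a common scale. Scaled to the spike-in RNAs, the median of all genes was −0.21 for pyruvate removal at 5 mM glucose, −0.37 for high glucose with pyruvate and −0.16 for high glucose without pyruvate, and the synthetases shifted with it, so the signs of single differences in those 3 comparisons are relative to other genes on the array. Relative to the median of all genes, the cytosolic median stayed between −0.07 and 0.02 and the mitochondrial median between −0.04 and 0.03 in every comparison and setting tried. A limma fit of pyruvate and glucose as additive terms over the 4 arrays, with Benjamini-Hochberg adjustment over 31274 probes, called 0 of the 48 synthetase probes and 0 of all probes for either term. At an unadjusted p under 0.05 it held 1081 of all probes for pyruvate (3.46%) and 1490 for glucose (4.76%), among them 1 and 0 synthetase probes. That 1 was ENSMUST00000034441, with an estimate for pyruvate of 0.47 ± 0.09 (SE), a limma p of 0.0191 and an adjusted p of 0.988. No synthetase probe was under 0.05 for pyruvate with spike-in scaling, with the normexp background correction or when limma let the variance follow intensity. The SE of the synthetase probes was 0.09 to 0.34. The fit recovered 0 of 200 changed probes simulated with noise drawn from its own residual variance. That variance takes any dependence of pyruvate on glucose as error. The fit's count of 0 calls thus sets no limit on a change.

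Genes that act with the synthetases were taken from lists of their partners. The 3 scaffolds of the multisynthetase complex, Aimp1, Aimp2 and Eef1e1, had differences without pyruvate of 0.00, 0.02 and −0.20 at 5 mM glucose and of 0.13, 0.04 and 0.22 at 15 mM glucose, so 3 of 3 were higher there, where 57.1% of all genes were. Eef1e1 had an intensity of 3587.6, 3034.3, 3032.3 and 3596.0, and the first and last of these were the high arrays. Of the genes for delivery, export, end repair and editing of tRNA, 0 of 9 measured were past 1.5-fold without pyruvate at 15 mM glucose, where 10.1% of all genes were. Trnt1, which adds the CCA end that a synthetase charges, had the largest difference there at 0.39, from an intensity of 1149.7 with pyruvate to 1472.7 without it. At 5 mM glucose 1 of 10 was (5.7% of all genes), Eef1a2, a tissue-restricted form of the elongation factor that carries charged tRNA, whose intensity of 7.5, 30.6, 11.6 and 12.1 was near background. Eef1a1, the common form, differed by −0.01 and 0.01. Of the 8 mitochondrial partners, which include the elongation factor Tufm and the amidotransferase subunits, 0 were past 1.5-fold in any comparison, where 5.57 to 10.8% of all genes were. Without pyruvate Tufm differed by 0.04 at both concentrations, and at 15 mM glucose Tsfm, for its exchange factor, differed by −0.24 and Gatc by 0.18. The mean intensity over the Tsfm probes was not lower there, at 1870.4 with and 1947.0 without pyruvate, so its probes did not move alike.

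Larger differences were found in the list for uncharged tRNA sensing, which also holds the outputs that all eIF2 kinases share. At 15 mM glucose 4 of the 9 on the array were at least 1.5-fold higher without pyruvate, where 5.13% of all genes were. At 5 mM glucose 0 were past 1.5-fold, where 2.67% of all genes were higher by that much. These shares are a description and no test, as the list was chosen with earlier results of these data known. Atf4, the mRNA of the factor itself, had an intensity at 5 mM glucose of 39673.0 with pyruvate and 56206.6 without it, and at 15 mM glucose of 38415.6 with pyruvate and 73932.3 without it. Both arrays without pyruvate lay above both with it, and the differences were 0.51 at 5 mM and 0.98 at 15 mM glucose.

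Ddit3, which encodes the stress factor CHOP, had an intensity of 5939.3, 8511.3, 4878.4 and 10531.2 and differed by 0.56 and 1.08. Trib3, a pseudokinase gene induced by ATF4 and CHOP, had an intensity of 25283.2, 32366.1, 25962.7 and 43165.4 and differed by 0.39 and 0.70. Sesn2, which encodes a leucine sensor upstream of mTORC1 and is induced by ATF4, had an intensity of 5819.7, 8404.8, 5771.5 and 9486.0 and differed by 0.57 and 0.69. In all 3 both arrays without pyruvate lay above both with it. Over the settings tried, the same count of 4 was found at 15 mM glucose and of 0 at 5 mM glucose. Between the glucose concentrations without pyruvate, 1 of 9 was past 1.5-fold (10.8% of all genes), which was Atf4, higher by 0.64 at 15 mM. This count was 0 to 1 over the settings tried, with Atf4 at 0.44 to 0.64.

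GCN2 and the genes that act on it did not share this direction at 15 mM glucose. Eif2ak4, the kinase GCN2, had an intensity of 3392.7, 3061.6, 2852.9 and 2432.8 and differed by −0.11 at 5 mM and −0.26 at 15 mM glucose. Gcn1l1, which encodes a partner needed by GCN2, differed by 0.05 and −0.20, and Impact, which encodes a GCN2 inhibitor, by 0.01 and −0.24. The Impact difference at 15 mM glucose ran from −0.27 to −0.06 over the settings tried. Its mean intensity there was 4496.9 with and 4356.1 without pyruvate, so its probes did not move alike. Eif2ak4, Gcn1l1 and Impact all lay inside the central range given above for genes of highest level at 15 mM glucose, −0.35 to 0.31. Eif2s1 and Eif2b5, for subunits of eIF2 and of its exchange factor, differed by 0.08 and −0.06 at 15 mM glucose. At 15 mM glucose the 12 ATF4-responsive synthetases ranged from −0.09 (Eprs) to 0.19 (Nars), all below Sesn2, Trib3, Atf4 and Ddit3 at 0.69 to 1.08. At 5 mM glucose they ranged from −0.11 (Iars) to 0.09 (Sars), below the same 4 genes at 0.39 to 0.57. With 1 array per condition this gap has no test, and the arrays give mRNA at 1 h and not protein or tRNA charging.

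**Figure D4:**
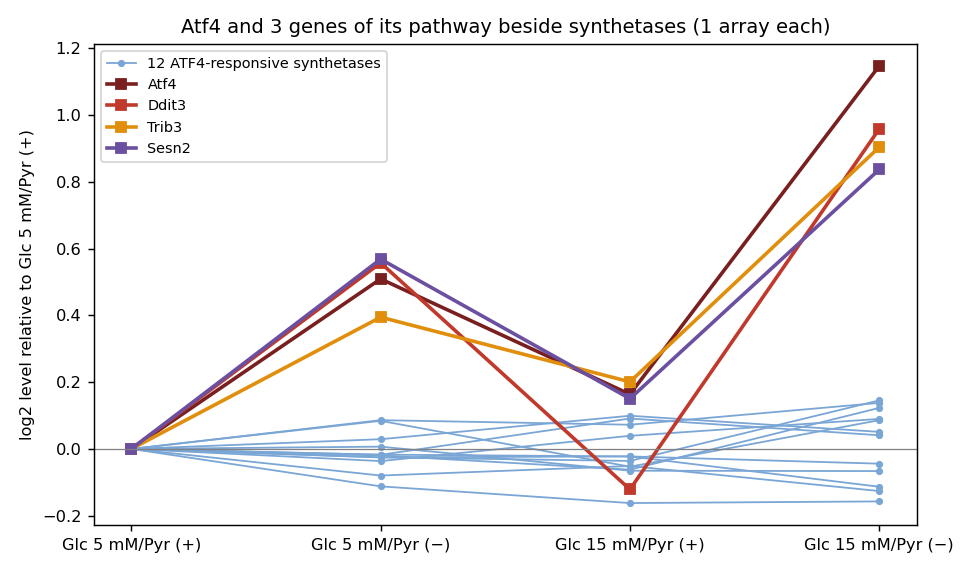
Log2 level in each condition relative to [Glc 5 mM/Pyr (+)] for Atf4, Ddit3, Trib3 and Sesn2 (squares) and for the 12 ATF4-responsive synthetases (light blue circles), 1 array per condition with no error bars; lines join the points of a gene and show no time course. Without pyruvate at 15 mM glucose Atf4, Ddit3, Trib3 and Sesn2 stand above all 12 synthetases, and the differences from [Glc 15 mM/Pyr (+)] are 0.69 to 1.08 for these and −0.09 to 0.19 for the synthetases.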

How the data were processed

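IMS32 RNA of 4 conditions was measured on 1 one-colour Agilent array each (Cy3). The authors deposited Feature Extraction 11.5.1.1 output, with a background-corrected intensity per spot and flags for background, saturation and outliers, and a table of the authors' values. That deposited table is a ratio of the same intensity to 1 constant per array, within 1e-06 for all 44397 features. No spot was saturated.

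Control spots and 166 to 183 outlier spots per array were left out, and spots of a probe were averaged. From each log2 intensity, that of the 75th percentile of the mouse probes was subtracted, which was 1789.0 with and 1742.0 without pyruvate at 5 mM glucose and 1598.3 with and 1632.0 without it at 15 mM glucose. Printed intensities are before this scaling. Of 39418 probes with a spot on all arrays, 31274 were well above background on at least 1 and were kept, for 24752 genes. A gene is the mean of its probes, and a probe below background on 1 side of a comparison enters counts by its bound. Differences between single arrays have no test. A call was a 1.5-fold difference, and 2-fold was an alternative. limma 3.58.1 under R 4.3.3 fitted pyruvate and glucose additively, with 1 residual degree of freedom, and takes any dependence of one on the other as error. Other steps used Python 3.11.15, numpy 2.4.6, pandas 2.3.3 and matplotlib 3.10.9.

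Any synthetase of the rule could be described in the text, with values in every array for the 3 largest differences in each comparison and group. The members and lists were chosen with earlier results of these data known. On simulated data, the limma fit recovered 0 of 200 with noise drawn from its own residual variance (median SD 0.143). With an SD of 0.05 it recovered 200 of 200, with 14 false.

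The alternatives were the percentile over probes detected on all arrays, cyclic loess, quantile normalization, 8 of 10 spike-in probes as the scale, the deposited ratio, normexp with an offset of 50, the brightest probe of each gene, 2 filters on dim probes, Tarsl2 counted as cytosolic, and an intensity trend in limma. The number of arrays limits the precision.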

Additional observations from a re-analysis of the deposited data

How the results depend on the processing

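Of 138 recomputed group medians and counts, 132 stayed, a median by shifting less than the spread between spots (0.106 log2). The count of synthetases past 1.5-fold or 2-fold stayed 0 under every alternative tried. That spread is of a single probe and was larger than any main median, so a median that changed sign could count as stayed. The 6 that moved were medians under spike-in scaling. They became −0.21 (cytosolic) and −0.18 (mitochondrial) for pyruvate removal at 5 mM glucose, −0.36 and −0.38 for high glucose with pyruvate, and −0.15 and −0.14 for high glucose without pyruvate, each beside a like shift of all genes. Of 1440 single-gene values, 150 moved by more than that spread, 120 of them under spike-in scaling. The limma fit called 0 synthetase probes under every alternative, with 0 to 2 of 48 at an unadjusted p under 0.05. The additive fit pairs the arrays with and without pyruvate through its glucose term. No other pairing was possible because each condition has 1 array, and for the same reason no array could be left out. Dim probes such as Nars2 and ENSMUST00000034441 are the least certain.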

Other observations

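Wars2, the mitochondrial tryptophan enzyme, is not among the 40 names because its description on the array is spelled without the hyphen, and it is named here after its values were seen. Its brighter probe had an intensity at 5 mM glucose of 750.2 with pyruvate and 757.3 without it, and at 15 mM glucose of 745.9 with pyruvate and 604.1 without it, the last being the low array, with a log2 difference Pyr (−) minus Pyr (+) of 0.05 at 5 mM and −0.33 at 15 mM glucose. Its dimmer probe had an intensity of 114.7, 104.9 and 96.8 on the first 3 of these arrays, was slightly lower on the last, and differed by −0.09 and −0.06. Neither probe passed 1.5-fold in any comparison, so the count of mitochondrial synthetases past that threshold would stay 0 with it.

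Wars, the cytosolic tryptophan enzyme, also had 2 probes of unlike sign. The probe at chr12:110098245-110098304 (mm9) differed by 0.09 at 5 mM and −0.10 at 15 mM glucose, and the probe at chr12:110104366-110104425 by −0.16 and 0.20.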
